A study of Mus musculus with 2 samples.

Results

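The colony stimulating factors are secreted proteins that make blood progenitors divide and mature into macrophages and granulocytes, and the set described here comprises 3 of them, Csf1, Csf2 and Csf3, with the 4 receptor chain genes Csf1r, Csf2ra, Csf2rb and Csf3r. The 7 genes were selected by gene symbol from the platform annotation, and the family itself was chosen on the measured signals, because Csf1 and Csf2 were known to differ between the arrays. Their own differences are therefore a description. All 7 were found among 19505 named genes, each with 1 platform identifier. The cells were lung cells sorted as positive for an SPC/GFP reporter and for EpCAM, an epithelial surface protein. SPC is the usual short form of surfactant protein C, which alveolar type 2 cells secrete. One sample came from mice exposed to smoke for 3 months and the other from air-exposed controls. The sources used here do not give the number, strain, sex and age of the mice, how the reporter was made or whether animals were pooled. RNA of each sample was hybridised to 1 Clariom S Mouse array.

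CSF1 (M-CSF) is the main growth factor of monocytes and macrophages and acts through the receptor tyrosine kinase CSF1R. CSF2 (GM-CSF) binds a receptor made of a ligand-specific alpha chain, CSF2RA, and a signalling beta chain, CSF2RB, which is shared with the receptors of IL-3 and IL-5 and works through JAK2 and STAT5. In the lung, CSF2 is made by alveolar type 2 cells among others, and alveolar macrophages need it to mature and to clear surfactant. CSF3 (G-CSF) drives neutrophil production through CSF3R.

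With 1 array in each condition there is no SD, no p-value and no replicate check, so each difference compares these 2 arrays and not the conditions, and the number of arrays limits the precision. The deposited values, read as log2 signals, had a median of 4.53 on the smoke array and 4.61 on the air array. The table has no detection calls. The median of all values, 4.57, served as a level filter, and a gene was counted as past 2-fold when its brighter array reached the filter and its log2 signal in smoke lay 1 or more above or below that in air. Surfactant protein C itself (Sftpc) had a signal of 19.93 on both arrays, the upper limit of the scale, and Epcam was at 10.92 in smoke and 11.09 in air, so the defining genes of the sort were bright on both. Other cell types also left signal: the pan-leukocyte gene Ptprc was at 7.59 in smoke and 7.64 in air.

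Of the 3 ligands, Csf1 and Csf2 had higher signals in smoke and Csf3 was below the filter on both arrays, while the 4 receptor genes were all within 2-fold. Of the set, 6 genes reached the filter; 2 of them were past 2-fold on the higher side in smoke, as were 3.94% of 10419 genes, and 0 on the lower side, as were 2.48%. Both Csf1 and Csf2 were also past 3-fold, a size reached on the higher side by 0.633% of genes. Since the set was chosen with these differences known, the shares are printed as background only.

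**Figure D1:**
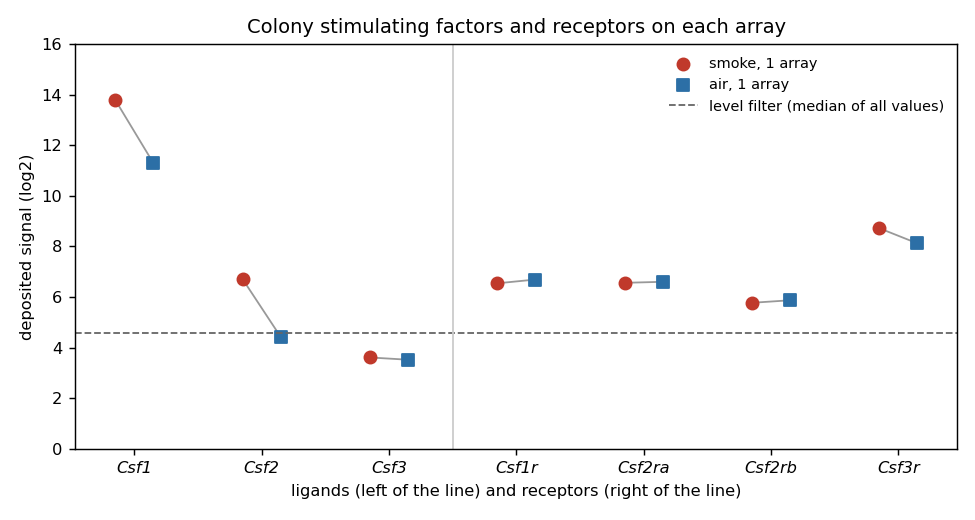
Deposited log2 signal of each gene on the smoke array (circles) and the air array (squares), 1 array each, with the level filter of 4.57 as a dashed line. Csf1 and Csf2 lay well apart between the arrays, Csf3 lay under the filter on both, and the receptor genes lay close together.

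Csf1 had a log2 signal of 13.79 in smoke and 11.29 in air, a log2 difference of 2.50, or 5.66-fold higher in smoke on the deposited scale. It was far above the filter on both arrays, and the difference was 2.49 after an offset of 16 was added on the linear scale. Csf2 had a log2 signal of 6.71 in smoke and 4.42 in air, a log2 difference of 2.29, or 4.89-fold. Its air signal was just below the filter, so Csf2 passed through its smoke signal alone, and with the offset its difference was 1.69. Csf3 was at 3.61 in smoke and 3.52 in air, a log2 difference of 0.09. At that level the arrays give no measure of whether Csf3 was expressed.

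The genes of the set with the large differences, Csf1 and Csf2, are shown by the 250 bases upstream of the outermost start of each gene in RefSeq (GRCm38.p6). A gene can have transcripts that start farther in; for Csf2, whether this window adjoins the start of its main transcript is not known. Promoter sequences were at hand for 4 of the 7 genes (Csf1, Csf2, Csf2ra and Csf3r). Each was searched on both strands for the kappa B consensus, the element bound by NF-kB, for the AP-1 element TGANTCA and for TATAAA. Capitals mark matches.
Csf1, chr3:107760470-107760719 (- strand): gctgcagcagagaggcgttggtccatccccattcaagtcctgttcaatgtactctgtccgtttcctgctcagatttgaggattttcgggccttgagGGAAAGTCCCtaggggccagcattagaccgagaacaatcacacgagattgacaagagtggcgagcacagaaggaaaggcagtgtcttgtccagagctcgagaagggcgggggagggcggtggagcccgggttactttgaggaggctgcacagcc
Csf2, chr11:54249900-54250149 (- strand): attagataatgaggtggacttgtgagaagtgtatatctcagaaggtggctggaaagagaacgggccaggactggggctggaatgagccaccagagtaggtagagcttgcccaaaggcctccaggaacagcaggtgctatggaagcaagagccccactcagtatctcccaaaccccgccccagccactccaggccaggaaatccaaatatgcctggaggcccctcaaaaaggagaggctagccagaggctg
The Csf1 stretch held 1 match, to the kappa B consensus, at positions -154 to -145 relative to the start, on the strand opposite to the gene. A match to this consensus was present in 3.90% of 32851 RefSeq promoters of the same length. The AP-1 element and TATAAA were present in 6.75% and 12.4% of them. No match to any of the 3 motifs was found in the windows of Csf2, Csf2ra and Csf3r, which says only that these letters are not in those windows, and for Csf2 not what lies before its main transcript.

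The next named genes along the chromosome in RefSeq give a view of the surroundings. Beside Csf1, Ahcyl1 was at 14.48 in smoke and 14.03 in air, and Eps8l3 did not reach the filter on either array (2.90 in smoke and 3.09 in air). Beside Csf2 lie P4ha2, at 7.95 in smoke and 8.04 in air, and Il3, at 3.18 in smoke and 2.81 in air. None of these 4 neighbours was past 2-fold. Of the neighbours of the other 5 genes, 1 was: Pdgfrb, next to Csf1r, at 5.09 in smoke and 6.09 in air, and under 2-fold with the offset (-0.75).

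The differences were then read against genes of like signal, the 200 genes nearest to each in mean level over both arrays. The log2 difference of Csf1 was above that of 98.5% of its 200 genes, whose robust SD (a scaled median absolute deviation) was 0.42 around a median of 0.10. The 3 genes that differed more were Dbp (8.43) and Nr1d1 (4.35), which belong to the circadian clock, and Ly6i (3.55), of the Ly6 surface protein family. These names were taken after their values were seen. Csf2 stood above 99.5% of its like-level genes (robust SD 0.55, median -0.02), with the sialyltransferase gene St6galnac3, at 2.60, the 1 gene above it. Csf3 stood above 69.5% of its like-level genes, and its difference of 0.09 lay within their spread (robust SD 0.41, median -0.10). This spread holds real differences as well as measurement error and does not stand in for replicates.

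**Figure D2:**
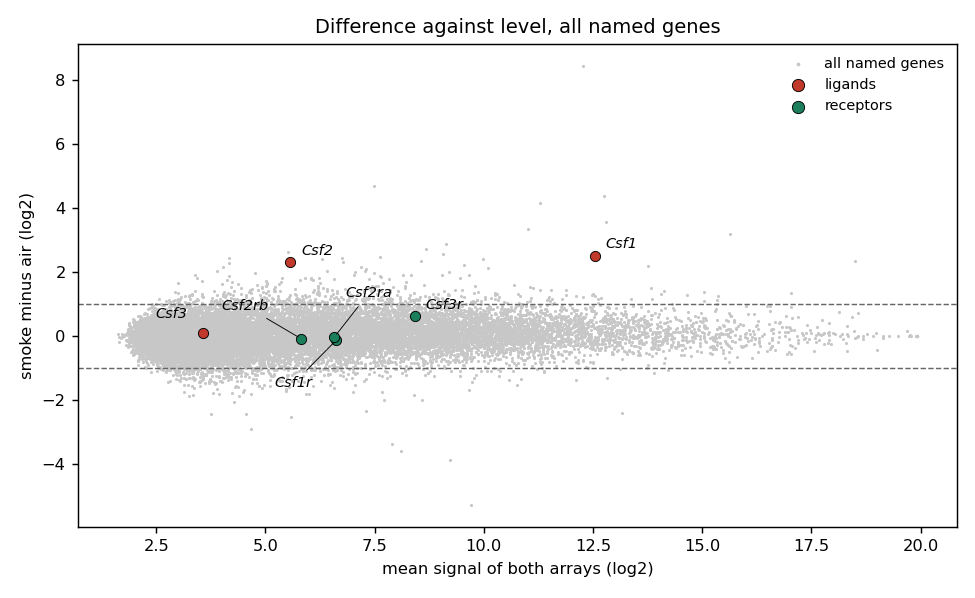
Log2 difference, smoke minus air, against the mean log2 signal of both arrays for all 19505 named genes (grey), with ligands and receptors in colour and dashed lines at 2-fold. Csf1 (2.50) and Csf2 (2.29) lie above most of the cloud, and the other 5 genes lie within it.

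The receptor genes showed small differences. Csf1r, the receptor of CSF1 on macrophages and their precursors, was at 6.54 in smoke and 6.69 in air, a log2 difference of -0.15. Csf2ra, the alpha chain for CSF2, was at 6.56 in smoke and 6.60 in air (-0.04). Csf2rb, the shared beta chain, was at 5.77 in smoke and 5.87 in air (-0.10). These 3 receptor genes stood above 32%, 42.5% and 40.5% of genes of like level, with robust SDs of 0.44, 0.42 and 0.53, so their differences were smaller than the spread at their level. Mouse has a close paralog of Csf2rb, Csf2rb2, next to it on the chromosome, which was not analysed here, and how far a probe separates the pair is not known.

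Csf3r, the CSF3 receptor of neutrophils, was the receptor gene with the largest difference. Its signal was 8.72 in smoke and 8.12 in air, a log2 difference of 0.60, or 1.52-fold higher in smoke. It stood above 82.5% of genes of like level, where the robust SD was 0.47 around a median of 0.17. It was past 1.5-fold, as were 14.5% of the genes above the filter on the higher side, but its difference fell short of 1.5-fold under quantile normalization (0.48), with the offset (0.57) and after centring on the median of its like-level genes (0.43).

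**Figure D3:**
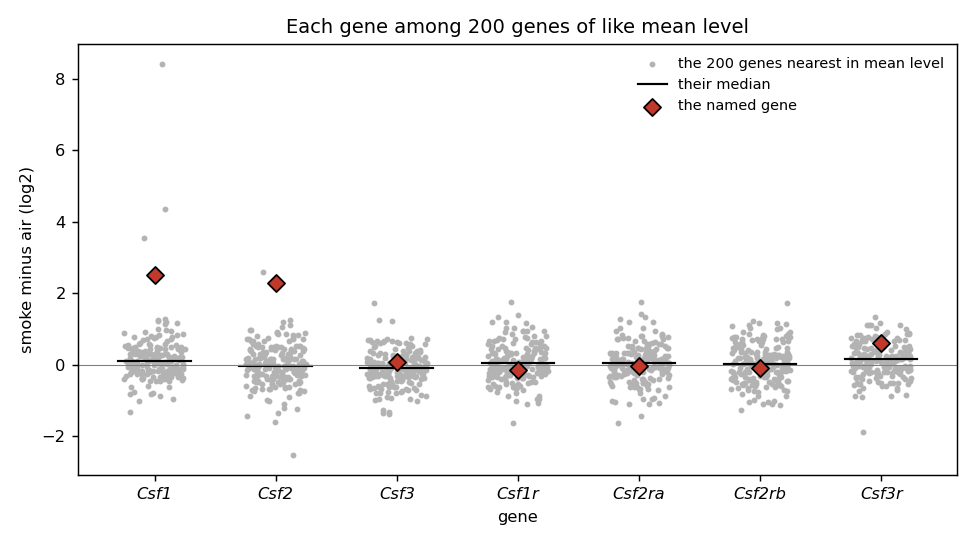
Log2 difference, smoke minus air, of each gene (diamond) beside the 200 genes nearest to it in mean level (grey points, median as a bar). Csf1 and Csf2 stand at the upper edge with 3 and 1 points above them, and the other 5 diamonds lie inside their points.

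Neutrophil markers were examined beside Csf3r. Of 15 listed, 14 were in the table, 9 of them below the filter on both arrays. Il1r2, a decoy receptor, was the 1 gene of 5 above the filter past 2-fold, at 5.61 in smoke and 4.49 in air. Over all genes above the filter, 3.94% were past 2-fold on the higher side. The log2 difference of Il1r2 was 1.12, and 0.75 with the offset. S100a8, an abundant granulocyte protein, was at 7.0 in smoke and 6.72 in air. The granule genes Mpo, Elane, Camp, Ltf and Ngp were all below the filter on both arrays, and Ly6g was not analysed here. The other 3 above the filter were the chemokine receptor gene Cxcr2 (6.16 in smoke and 5.18 in air), Retnlg (5.15 and 4.25) and S100a9 (6.29 and 6.48). Retnlg and Il1r2 reached the filter on their smoke signals alone. The 14 markers had a median log2 difference of 0.18 (all named genes: -0.02), and the list's summed linear signal was 449 in smoke and 347 in air. Over the 5 above the filter the median was 0.90, the value of Retnlg itself. That median is raised by the genes that passed through smoke alone, so no value over all genes is set beside it. The part of neutrophils in the Csf3r signal was not tested. In a bulk sample such as this, more cells of a type and more RNA per cell cannot be told apart.

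Macrophage markers were read beside Csf1r, Csf2ra and Csf2rb in the same way. Of 12 measured alveolar macrophage markers, 6 were below the filter on both arrays, among them Marco, Itgax, Siglecf and Fabp4. Chil3, a chitinase-like protein, was the 1 marker past 2-fold, at 9.87 in smoke and 11.27 in air. Fabp5 went the other way but stayed under 2-fold, at 11.34 in smoke and 10.41 in air, a log2 difference of 0.93. Over all genes above the filter, 2.48% were past 2-fold lower and 3.94% higher. The alveolar macrophage list had a median of -0.14 (-0.01 over the 6 above the filter). Its summed linear signal was 5164 in smoke and 5516 in air. Without its 2 brightest genes, Chil3 and Fabp5, that sum was 1636 in smoke and 1686 in air. Of 15 monocyte and interstitial macrophage markers, 7 were above the filter. The lipopolysaccharide co-receptor gene Cd14 was 2.08-fold higher in smoke (10.26 in smoke and 9.20 in air), and Treml4 was 2.27-fold lower at a low signal (3.74 in smoke and 4.92 in air). Cd14 differed by 0.96 under quantile normalization and Treml4 by -0.66 with the offset, both under 2-fold. Treml4 reached the filter on its air signal alone. The list's median was 0.29, or 0.10 with the offset, and its summed linear signal was 2516 in smoke and 1628 in air. Without its 2 brightest genes, Cd14 and Ly6c2, the sum was 386 in smoke and 341 in air. Adgre1, which encodes the macrophage antigen F4/80, did not reach the filter, at 4.27 in smoke and 4.43 in air. The part of these cells in the receptor signals was not tested.

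Csf1 and Csf2 are also made by cells outside the sort, so the markers of those cells are given beside them. Endothelial cells and fibroblasts are known sources of CSF1. Endothelial markers were lower in smoke for 8 of 9 genes, with a median of -0.73. Of all 19489 measurable named genes, 9971 were lower. Cldn5, a tight junction gene, was 2.25-fold lower and the TGF-beta co-receptor gene Eng 2.04-fold lower, and the list's summed linear signal was 24680 in smoke and 39321 in air. Of 9 fibroblast markers, 3 were at least 2-fold lower (Col1a1, Pdgfrb and Postn, at -1.18, -1.0 and -1.08) and 0 were higher by 2-fold. All 3 were under 2-fold with the offset, and Postn reached the filter on its air signal alone. Over all genes above the filter, 2.48% were at least 2-fold lower and 3.94% higher. The fibroblast list had a median of -0.11, with 3 of 9 genes higher. The part of these cells in the Csf1 signal was not tested.

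Lymphocytes and mast cells are known sources of CSF2. Of 9 lymphocyte markers, 5 were below the filter on both arrays. Cd3d, part of the T cell receptor complex, was the 1 past 2-fold, at 4.66 in smoke and 3.63 in air. Its log2 difference was 1.03, and 0.54 with the offset, and it reached the filter on its smoke signal alone. Over all genes above the filter, 3.94% were past 2-fold higher and 2.48% lower. Among the 10 markers of eosinophils, basophils and mast cells, 8 were below the filter on both arrays. The mast cell protease gene Cpa3 was at 4.98 in smoke and 3.59 in air, and the transcription factor gene Gata2 was at 8.19 in smoke and 9.21 in air. Both were past 2-fold, in opposite directions, and differed by 0.76 and -0.98 with the offset. Cpa3 also reached the filter on its smoke signal alone. The dendritic cell list had 1 of 10 markers above the filter, Clec10a, at 4.94 in smoke and 5.07 in air. The part of these cells in the Csf2 signal was not tested. The 6 alveolar type 2 markers below the upper limit had a median of 0.05, and the largest difference among them was that of the lineage factor Nkx2-1, at 9.60 in smoke and 9.35 in air.

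Other ligands and receptors of the same families were within 2-fold. Il34, the second ligand of CSF1R, was at 8.23 in smoke and 7.83 in air, a log2 difference of 0.40. Il3 and Il5, whose products signal through the shared beta chain, were at 3.18 and 4.50 in smoke and at 2.81 and 4.59 in air. Kitl, the stem cell factor, was at 9.26 in smoke and 9.45 in air, and Flt3l, a dendritic cell growth factor, at 5.41 in smoke and 5.33 in air. Epo, the red cell growth factor, did not reach the filter, at 2.24 in smoke and 2.39 in air. The 6 related ligands had a median log2 difference of -0.01, with 0 of the 4 above the filter past 2-fold (all genes above it: 3.94% higher, 2.48% lower).

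Among the related receptors, Kit, the receptor of stem cell factor, had the largest difference, with 9.62 in smoke and 10.41 in air, a log2 difference of -0.79. Il3ra, the alpha chain for IL-3, was at 6.53 in smoke and 6.23 in air. Il5ra, Flt3 and Epor did not reach the filter, at 2.80, 2.50 and 3.27 in smoke and at 2.60, 2.86 and 2.85 in air. Thpo was not analysed here.

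Genes that carry the signal of these receptors gave 0 of 22 above the filter past 2-fold. Their median was 0.17 over 25 genes (all named genes: -0.02). Over the 22 above the filter it was 0.175 (all named genes above the filter: 0.06). Under quantile normalization the median over 25 genes was 0.105 (all named genes: -0.01). Over all genes above the filter, 3.94% were past 2-fold higher and 2.48% lower. Jak2, the kinase bound to the beta chain, was at 10.48 in smoke and 10.75 in air. Stat5a and Stat5b, the transcription factors it activates, were at 7.81 and 6.42 in smoke and at 7.77 and 6.24 in air. Stat3, which acts downstream of CSF3R and of IL-6, had the largest difference of the list, 0.93 (13.87 in smoke and 12.94 in air). Cish, a STAT5 target that feeds back on cytokine receptors, was at 6.88 in smoke and 7.09 in air.

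Cytokines listed as possible inducers of this family, with receptors, sensors and adaptors, went both ways, with a median of -0.02 over 19 genes and 13 above the filter. Of the 13, 2 were past 2-fold higher (all genes above the filter: 3.94%) and 1 lower (2.48%). Tlr2, a sensor of bacterial lipoproteins, was 2.19-fold higher (7.85 in smoke and 6.72 in air), and Il6 was 2.07-fold higher (6.65 and 5.60), though 0.85 on the log2 scale with the offset. Il18 was 2.48-fold lower, at 3.38 in smoke and 4.69 in air, and -0.66 with the offset. It reached the filter on its air signal alone. Il1b was at 9.62 in smoke and 9.42 in air, Tnf and Il1a were below the filter on both arrays, and Il33, an alarmin of type 2 cells, was at 14.39 in smoke and 14.28 in air.

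Transcription factors known to act on these genes had 2 of 18 above the filter past 2-fold, both on the higher side. Over all genes above the filter the share was 3.94%. Junb, an AP-1 subunit, was 2.11-fold higher (11.60 in smoke and 10.52 in air), and Cebpd was 2.03-fold higher (10.23 and 9.21). Under quantile normalization their log2 differences were 0.96 and 0.91. The list's median was 0.07, and -0.05 under quantile normalization. Rela, a subunit of NF-kB, was at 15.29 in smoke and 15.51 in air, and Nfkb1 was not analysed here. Spi1 encodes PU.1, the myeloid factor that drives receptor genes of this family in macrophages, and was at 12.03 in smoke and 12.85 in air, a log2 difference of -0.82.

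The messenger RNAs of Csf2 and other cytokines are short-lived because proteins that bind their 3' ends speed their decay. Of 14 genes of this machinery, all above the filter, 1 was past 2-fold, on the higher side (all genes above the filter: 3.94%). Zc3h12a, which encodes the ribonuclease Regnase-1, was at 9.06 in smoke and 7.37 in air, 3.23-fold higher. Zfp36, which encodes tristetraprolin, the best known such factor for Csf2, was at 15.05 in smoke and 14.93 in air. The list had a median of 0.06, and -0.08 under quantile normalization.

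Genes that depend on CSF2 in alveolar macrophages, many of which other cells express too, had 2 of 12 above the filter past 2-fold on the higher side. Over all genes above the filter the share was 3.94%. Bhlhe41, a repressor that keeps alveolar macrophages in their state and also takes part in the circadian clock, was at 5.58 in smoke and 4.01 in air, 2.97-fold higher, and 0.99 on the log2 scale with the offset; it passed the filter on its smoke signal alone. Abca1, a cholesterol exporter, was 2.19-fold higher (8.47 in smoke and 7.34 in air). Pparg, the nuclear receptor that CSF2 induces in these macrophages, was at 4.83 in smoke and 4.06 in air, a log2 difference of 0.77, and likewise passed the filter through smoke only. Fabp4, a lipid carrier that defines alveolar macrophages, was below the filter on both arrays, with a log2 difference of -0.65. Of the 16 genes, 10 were higher and 6 lower in smoke, the lower ones including Spi1 (-0.82), Cd36 (-0.33) and Lpl (-0.21). The list's summed linear signal was 155760 in smoke and 176892 in air. Its 2 brightest genes, Cd36 (-0.33) and Bhlhe40 (0.87), went opposite ways. Without these 2 the sum was 7403 in smoke and 10101 in air. The list's median was 0.19 over 16 genes (all named genes: -0.02). It was 0.33 over the 12 above the filter, a median raised by Bhlhe41 and Pparg, which passed through smoke alone.

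**Figure D4:**
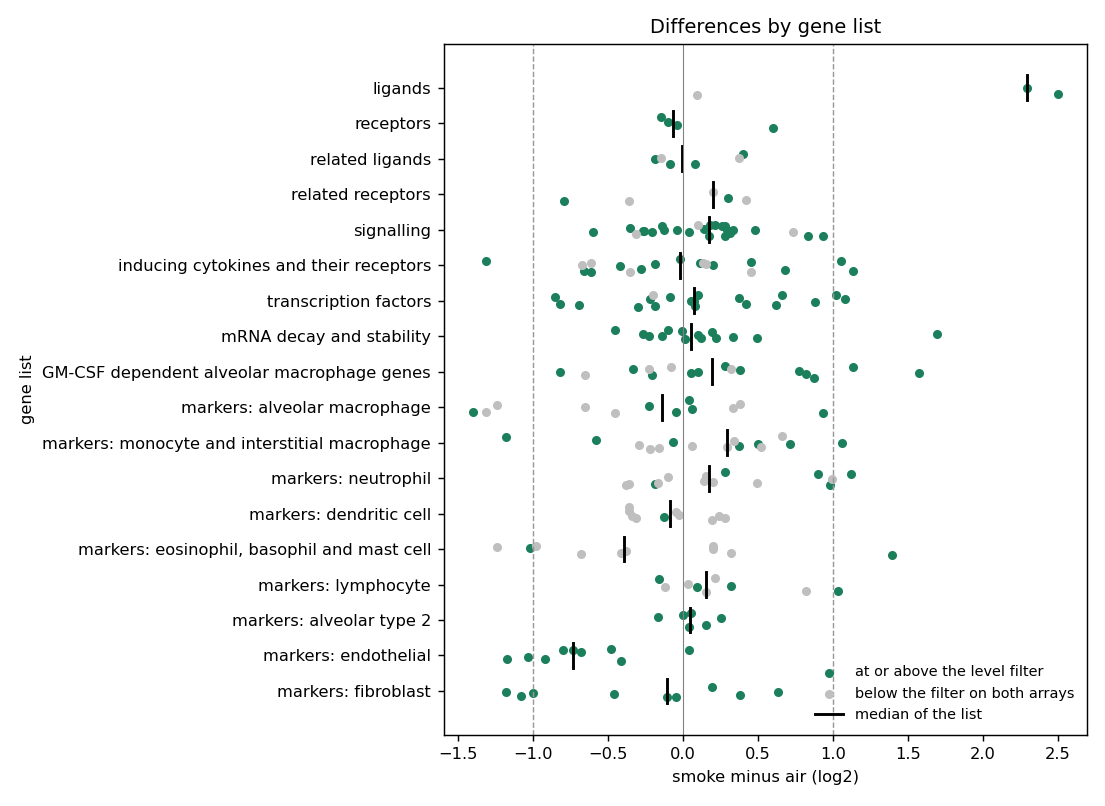
Log2 difference, smoke minus air, of every measurable gene of each list (1 point per gene, grey where both arrays were below the filter), with the list's median as a bar and dashed lines at 2-fold. The points of Csf1 and Csf2 lie to the right of those of every other list shown, and the endothelial list has the lowest median.

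Genes whose pair of signals was nearest to that of each gene were found by Euclidean distance over the log2 signals of the 2 arrays, 3 for each. For Csf1 these were Ly6i, Rbpjl and Tgfb1, at distances of 0.83, 0.86 and 0.88, and for Csf2 St6galnac3, Amt and Tceanc2, at 0.23, 0.43 and 0.50. The other 5 genes had close matches, as many genes share their low differences. For Csf3 they were Clec4b2, Gm4907 and Ltb, each at 0.01. For Csf1r they were Tob2, Igsf8 and Zfp605, for Csf2ra Frmd8, Aagab and Rpa2, for Csf2rb Tbrg3, Aste1 and D630045J12Rik, and for Csf3r Klhl29, Elapor2 and Map3k2, all within 0.05. With 2 arrays, likeness means only that the 2 signals were close.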

How the data were processed

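The authors deposited what was read here as log2 signals, 1 for each identifier on each array, from 1.55 to 19.93; the labels state neither scale nor centring. Per the submitters' processing notes the tool was Transcriptome Analysis Console, version not stated. The sources used here do not give background correction, normalization or genome build. The sample titles set the direction of differences (smoke minus air).

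Of 22206 identifiers, 19572 had 1 symbol and 2634 are unnamed here. They gave 19505 genes named through RefSeq by Entrez number (GRCm38.p6, names, order and promoters only), and identifiers of a gene were averaged. Leaving out 16 genes that stood at the upper limit on each array, 10419 were above the filter. No test across samples was possible. The members and lists were chosen with earlier results of these data known. Of 223 listed genes, 19 were not analysed here.

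Named were all 7 genes, all related ligands and receptors, per list up to 4 genes past 2-fold per direction (or the largest difference), 12 fixed genes and the 3 nearest in signal; other names were chosen after values were seen. Python 3.11.15, numpy 2.4.6 and pandas 2.3.3 were used. Alternatives were no filter, other filters, 1.5-fold and 3-fold thresholds, quantile normalization, an offset of 16, centring by level, the brightest identifier, and 100 or 500 like-level genes.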

Additional observations from a re-analysis of the deposited data

How the results depend on the processing

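The count of 2 members at least 2-fold higher was also 2 with no filter, a filter on the mean of both arrays, a 3-fold threshold, quantile normalization, the offset and centring by level. It was 3 at 1.5-fold, where Csf3r joined (a call that its differences of 0.48 under quantile normalization, 0.57 with the offset and 0.43 after centring do not reach), and 1 with a filter at the 75th percentile of all values (7.60), which Csf2 does not reach. The count on the lower side was 0 under all 8 alternatives. After adding 16 to the linear signals, the log2 difference of Csf2 was 1.69 in place of 2.29, which follows from its low air signal. The other 27 recomputed differences of the 7 genes moved by less than the robust SD at their level. None of the 28 changed sign. Those that used the brightest identifier could not move, because each of the 7 genes has 1 identifier. With 100 in place of 200 like-level genes, Csf1 and Csf2 stood above 100% of them, since the genes that differed more lay farther away in level. No paired analysis was possible because each condition has 1 array, and for the same reason no array could be left out. Without detection calls, a signal below the filter does not show that a gene was silent.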
